A study of Mus musculus with 4 samples.

Results

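The genes described here are regulators of epithelial and mesenchymal state in 4T1, a mouse mammary carcinoma line that spreads to distant organs and lacks the hormone receptors of luminal tumours. The rule named 10 genes by symbol and took the rows of the deposited table with a single gene symbol, 1 row per gene. It found 9 of them among 30142 genes, namely the epithelial regulators Esrp1, Esrp2, Grhl2, Ovol1 and Elf3 and the mesenchymal regulators Snai1, Snai2, Twist1 and Zeb1, each with 1 row. The row that covers Zeb2 also carries the symbol of a microRNA gene, so Zeb2 was not analysed here. RNA of 2 cultures with a scramble control (NC) and of 2 cultures labelled as MCT-1 silenced (shMCT-1) had been hybridised to 1 Affymetrix array each, and the design text calls the replicates independent, without saying whether they came from separate clones. The shMCT-1 cells were clones kept in puromycin, and how the NC cells were selected is not stated there. All 4 arrays held 4T1 cells without any further treatment, and the regulators were compared between these groups.

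Carcinoma cells can shift between a cohesive epithelial state and a motile mesenchymal state, and a small set of regulators is known to drive each side. Snail proteins (Snai1, Snai2), Zeb proteins and Twist1 bind E-box motifs and silence junction genes such as the cadherin Cdh1, while Grhl2, Ovol1 and Elf3 hold up epithelial transcription and Esrp1 and Esrp2 impose epithelial splicing. The sides are known to repress each other, with the microRNAs of the miR-200 family acting against the Zeb genes.

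The targeted transcript did not differ beyond its error. Mcts1, which encodes MCT-1, had a log2 difference, shMCT-1 minus NC, of -0.10 (SE 0.122, limma adjusted p = 0.945), so the silenced group is named by its label only. NC replicate 1 stood apart through interferon-stimulated genes, where the median gene of 9 measured was 3.84 log2 units higher than in the remaining arrays and where Usp18, a deconjugase of Isg15, was at 12.30 against 6.91, 7.33 and 5.72. Isg15 was at 8.06 on that array and at most 6.23 on the rest, and Oas2, a sensor of viral RNA, at 8.23 and at most 4.20. Values without that array are given beside many of the results below. Omitting it leaves NC replicate 2 alone against both arrays labelled shMCT-1. A shift shared by same-numbered arrays of the groups then enters the difference. Replicate 1 minus replicate 2 correlated at 0.42 between the groups over all rows. The keratins Krt8 and Krt18, which mark simple epithelium, were measured between 15.74 and 16.73 on every array. Krt14, a keratin of basal epithelium on the same marker list, was at 12.92 and 12.76 in NC and at 11.12 and 11.20 in the arrays labelled shMCT-1, a log2 difference of -1.68 (SE 0.118, limma adjusted p = 0.669), and -1.60 without NC replicate 1. Krt14 was lower on each array labelled shMCT-1 than on either NC array, and its part in the results on the regulators was not tested. The 5 measured fibroblast markers summed to 50.05 and 51.6 on the linear scale in NC and to 50.1 and 49.2 in the arrays labelled shMCT-1, all 5 of them dimmer than the median row. The lowest p among them were those of the matrix genes Lum (log2 difference -0.18), Dcn (-0.077) and Col1a2 (0.046). The 6 leukocyte markers summed to 115.4 and 69.1 in NC replicates 1 and 2 and to 87.2 and 70.6 in the arrays labelled shMCT-1, with 5 dimmer than the median row and Csf1r, a myeloid growth factor receptor, at 6.07 on NC replicate 1. The log2 difference was -0.47 for Csf1r, 0.21 for the neutrophil marker Ly6g and 0.088 for the macrophage marker Adgre1. The 5 endothelial markers summed to 65.7 and 63.9 in NC and 60.5 and 58.6 in the arrays labelled shMCT-1, with 3 dimmer than the median row. Among them Cdh5, the endothelial cadherin, had a log2 difference of -0.43 (SE 0.106, limma adjusted p = 0.882), and the receptor kinases Kdr and Tek had differences of -0.024 and -0.023. The part of other cells in the results was not tested.

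No regulator of either side passed the test, and the sides gave near-equal median differences. The RNA was taken from bulk cultures, where fewer cells of a type and less RNA per cell cannot be told apart. With limma, 0 of the 9 had an adjusted p under 0.05, as 0% of all 65956 rows did, and 0 of the 9 had an unadjusted p under 0.05 against 5.59% of all genes. The groups of arrays did not overlap for 3 of the 9, Esrp1, Snai2 and Zeb1, all lower in the arrays labelled shMCT-1, while 34.9% of all genes had groups that did not overlap. The median absolute log2 difference was 0.075 over the 9 genes and 0.10 over all genes. In 8 of the 9 genes the larger gap between replicates of a group exceeded the difference between the groups, Snai2 being the exception, and this held for 76.8% of all genes. The adjusted p over the 9 genes ran from 0.898 for Esrp1 to 0.995 for Esrp2.

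**Figure D1:**
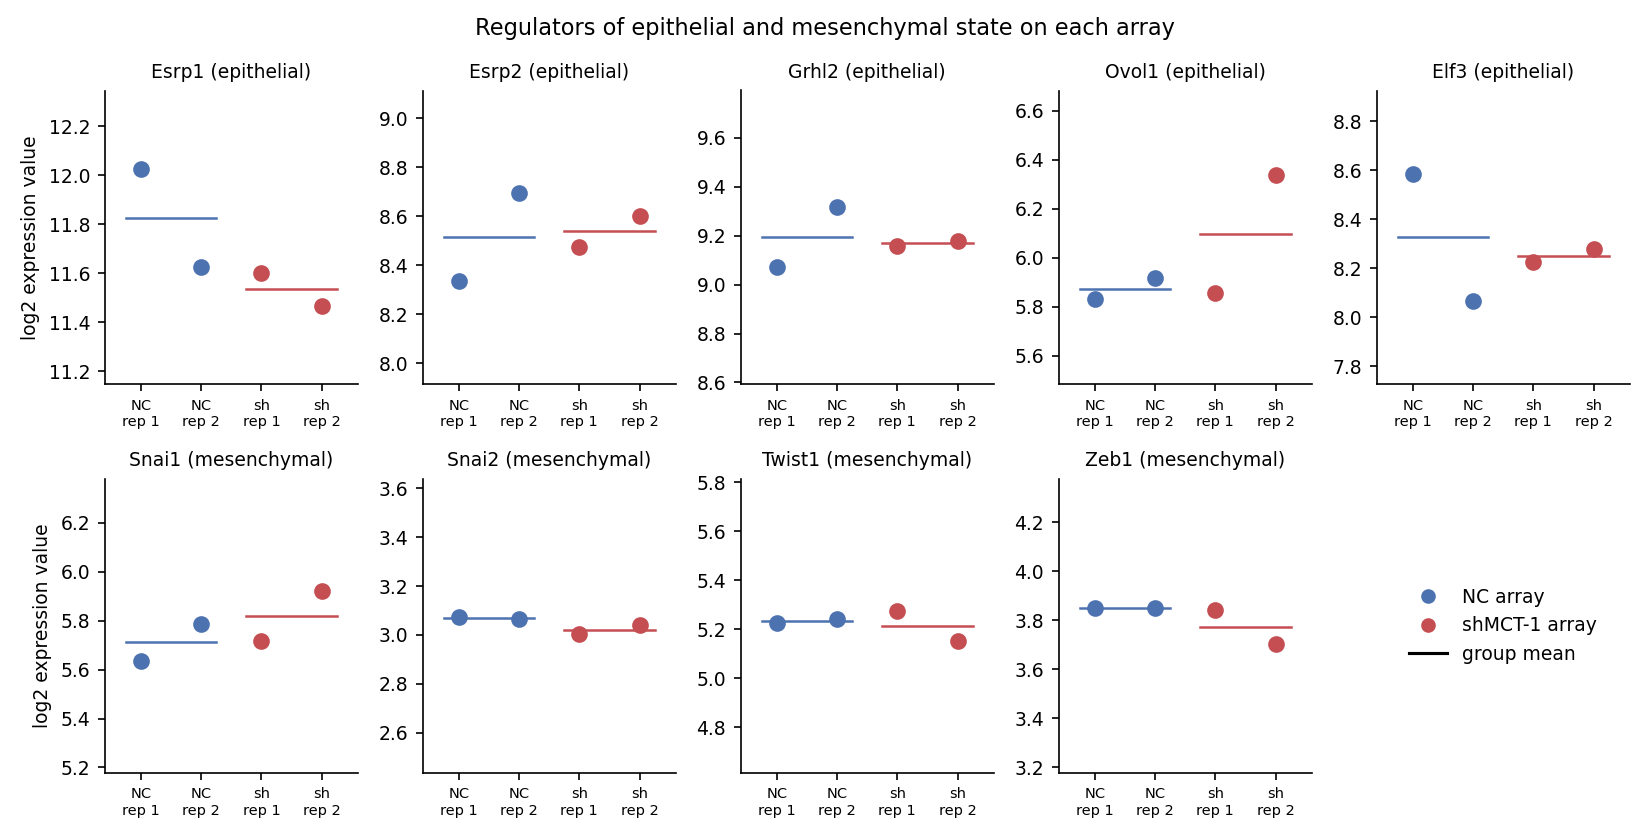
Log2 expression value (y axis, each panel spanning 1.2 log2 units) of each regulator on the 4 arrays (x axis, NC in blue, labelled shMCT-1 in red), with lines at the group means. Esrp1 and Elf3 are highest on NC replicate 1, Ovol1 is highest on shMCT-1 replicate 2, and Snai2, Twist1 and Zeb1 vary by at most 0.15 over the 4 arrays.

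Of the epithelial splicing regulators, Esrp1 had the largest absolute difference among the 9 genes. Esrp1 (gene ID 207920), an RNA-binding protein that promotes epithelial exons in receptors and adhesion molecules, was measured at 12.02 and 11.63 in NC replicates 1 and 2 and at 11.60 and 11.47 in shMCT-1 replicates 1 and 2. NC replicate 1 was the high array, and NC replicate 2 lay only just above the upper array labelled shMCT-1. The log2 difference of Esrp1 was -0.29 (SE 0.171, 95% interval -0.74 to 0.16, limma adjusted p = 0.898), a 1.22-fold lower mean. Leaving out NC replicate 1 gave -0.091 for Esrp1, and leaving out NC replicate 2 gave -0.49. Its absolute size stood at percentile 85.8 of all genes.

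Esrp2 (gene ID 77411), the paralog of Esrp1 with a like role in splicing, was at 8.33 and 8.69 in NC and at 8.47 and 8.60 in the arrays labelled shMCT-1. Here NC replicate 1 was the lowest array and NC replicate 2 the highest, so the NC values enclosed the others. Esrp2 had a log2 difference of 0.025 (SE 0.160, limma adjusted p = 0.995), and its 95% interval, as a ratio of shMCT-1 to NC, ran from 0.761-fold to 1.36-fold. NC replicate 1 minus the mean of the remaining arrays was 0.46 for Esrp1 and -0.26 for Esrp2 on the log2 scale.

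The 3 epithelial transcription factors had limma adjusted p-values from 0.918 to 0.993. Grhl2 (gene ID 252973), a grainyhead factor that activates Cdh1 and claudin genes, was at 9.07 and 9.32 in NC and at 9.16 and 9.18 in the arrays labelled shMCT-1. The values labelled shMCT-1 lay between the NC values and differed from each other by 0.023. Grhl2 had a log2 difference of -0.024 (SE 0.129, 95% interval -0.36 to 0.31, limma adjusted p = 0.993), which bounds the ratio of shMCT-1 to NC between 0.778-fold and 1.24-fold.

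Ovol1 (gene ID 18426), a zinc finger repressor that holds down mesenchymal genes in epithelia, was at 5.83 and 5.92 in NC and at 5.85 and 6.34 in the arrays labelled shMCT-1. Its higher mean came from shMCT-1 replicate 2, as replicate 1 lay inside the NC range. The log2 difference of Ovol1 was 0.22 (SE 0.189, 95% interval -0.27 to 0.72, limma adjusted p = 0.918), with values of -0.019 when shMCT-1 replicate 2 was left out and 0.46 when shMCT-1 replicate 1 was.

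Elf3 (gene ID 13710), an ETS factor of differentiating epithelia, was at 8.59 and 8.07 in NC and at 8.22 and 8.28 in the arrays labelled shMCT-1. The NC values were at the ends, with both others between them. Elf3 had a log2 difference of -0.075 (SE 0.198, 95% interval -0.59 to 0.44, limma adjusted p = 0.986), and it turned to 0.18 without NC replicate 1. As in Esrp1, NC replicate 1 was high in Elf3, by 0.40 over the mean of the rest. In Grhl2 and Ovol1 it was the lowest array, with values of -0.15 and -0.21 against the same mean.

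The mesenchymal regulators spanned 0.069 to 0.28 log2 units over the 4 arrays, and the epithelial ones 0.24 to 0.56. By mean signal the mesenchymal rows stood at percentiles 18.4 to 76.7 and the epithelial ones at 78.0 to 94.9. The part of signal level in these spans was not tested. Snai1 (gene ID 20613), the Snail repressor of Cdh1, was at 5.64 and 5.79 in NC and at 5.72 and 5.92 in the arrays labelled shMCT-1. In each group the replicate 2 array was the higher, and the groups overlapped. The log2 difference of Snai1 was 0.11 (SE 0.131, 95% interval -0.24 to 0.45, limma adjusted p = 0.949), and with 1 array left out it ran from 0.0043 to 0.21.

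Snai2 (gene ID 20583), the Slug repressor of basal mammary cells, was at 3.07 on both NC arrays and at 3.002 and 3.042 in the arrays labelled shMCT-1. The groups did not overlap, though all 4 values were close. By mean signal this row stood at percentile 18.4 of the table, so signal over background limits it. The log2 difference of Snai2 was -0.047 (SE 0.102, limma adjusted p = 0.980).

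Twist1 (gene ID 22160), a basic helix-loop-helix factor of mesoderm and invasion, was at 5.23 and 5.24 in NC and at 5.28 and 5.15 in the arrays labelled shMCT-1. Both NC values lay between the others. Twist1 had a log2 difference of -0.020 (SE 0.109, 95% interval -0.31 to 0.27, limma adjusted p = 0.993).

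Zeb1 (gene ID 21417), a zinc finger and homeobox repressor of epithelial genes, was at 3.85 on both NC arrays and at 3.84 and 3.704 in the arrays labelled shMCT-1. Only shMCT-1 replicate 2 lay away from the rest. The row was near the middle of all rows at percentile 54.0, close to the median of all row means at 3.68. Signal over background limits Zeb1 as well. The log2 difference of Zeb1 was -0.078 (SE 0.111, limma adjusted p = 0.960). It was -0.0086 with shMCT-1 replicate 2 left out and -0.15 with shMCT-1 replicate 1 left out.

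**Figure D2:**
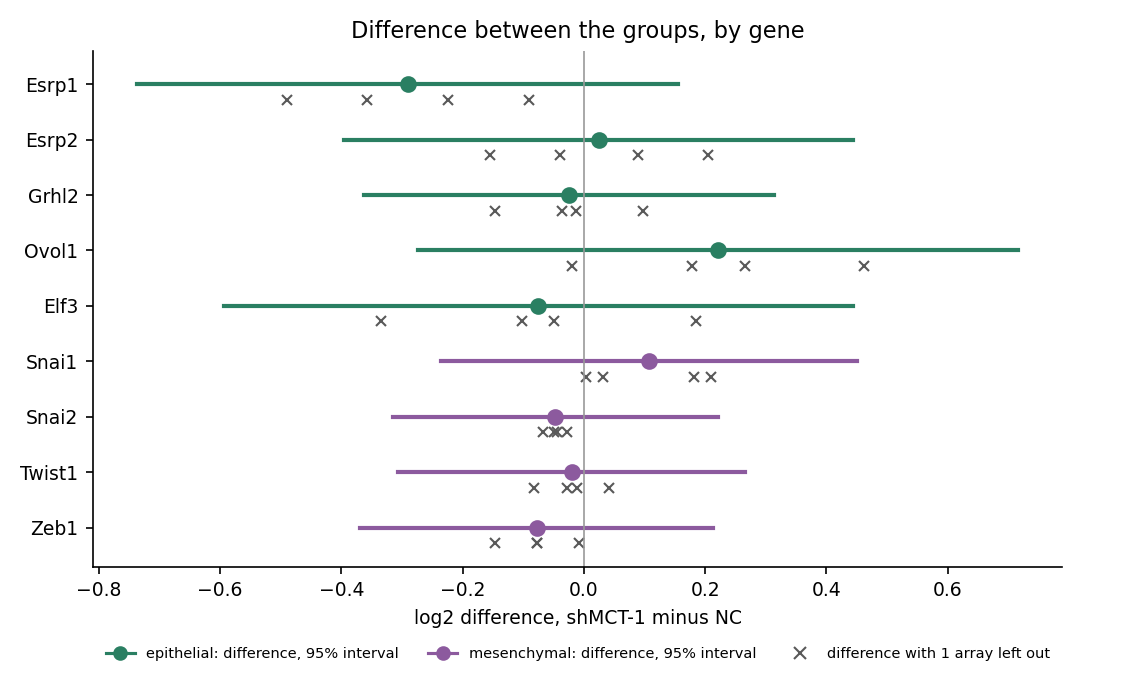
Log2 difference, shMCT-1 minus NC (x axis), of each regulator (y axis), with its 95% interval from limma as a line and the differences with 1 array left out as crosses. All 9 intervals include 0, and the widest belong to Elf3, Ovol1 and Esrp1.

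The epithelial and mesenchymal regulators were then set against each other on each array. After each gene was centred on its mean over the 4 arrays, the mean over the 5 epithelial regulators was 0.037 and -0.0084 on NC replicates 1 and 2 and -0.070 and 0.041 on shMCT-1 replicates 1 and 2. The same mean over the 4 mesenchymal regulators was -0.016 and 0.025 in NC and -0.0025 and -0.0071 in the arrays labelled shMCT-1. The gap, epithelial minus mesenchymal, was thus 0.053, -0.033, -0.067 and 0.048 in that order, with a positive and a negative value in each group. The gap changed by -0.019 from NC to the arrays labelled shMCT-1, less than the SD between replicates of 0.072 (pooled over the groups, n = 2 each). The median log2 difference was -0.024 over the epithelial and -0.034 over the mesenchymal regulators, against 0.014 over all genes.

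NC replicate 1 was the highest array for Esrp1, Elf3, Snai2 and Zeb1 and the lowest for Esrp2, Grhl2, Ovol1 and Snai1, that is 4 genes at each end. Without that array the median log2 difference of the epithelial regulators was -0.091, and without NC replicate 2 it was 0.098. The larger gap between replicates of a group had a median of 0.40 over the epithelial regulators, 0.13 over the mesenchymal ones and 0.21 over all genes, which are values of log2 differences and not of levels. The mesenchymal rows had the lower percentiles by mean signal, and the part of signal level in these gaps was not tested.

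**Figure D3:**
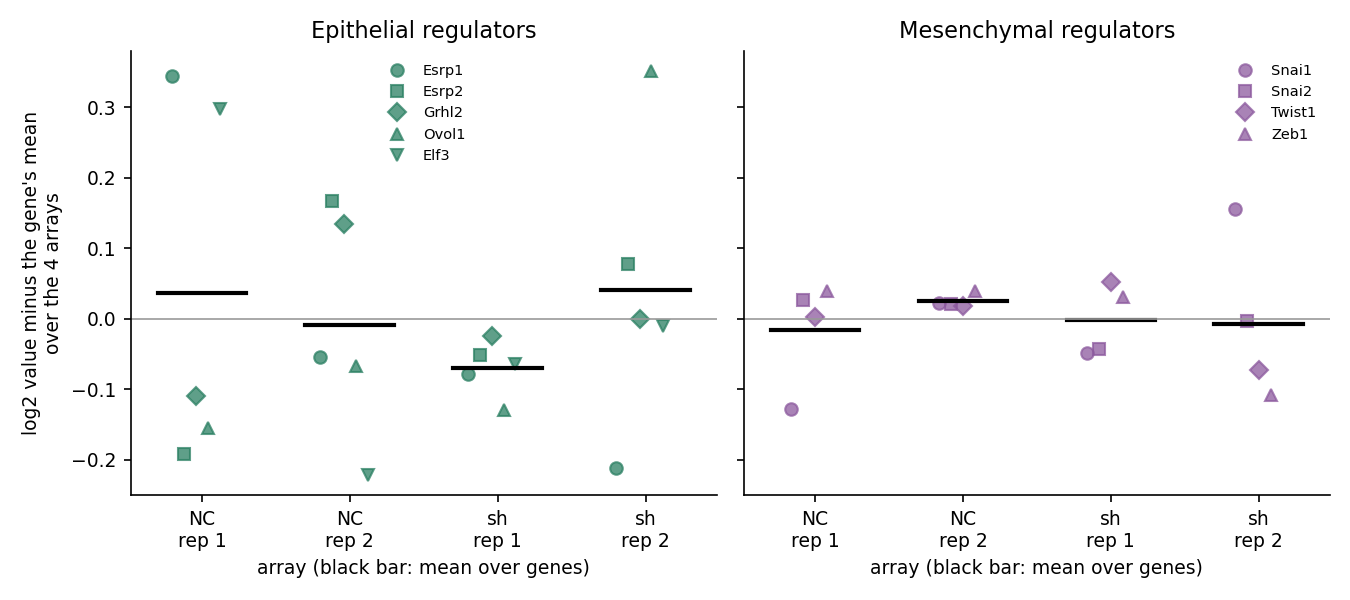
Log2 value minus the gene's own mean over the 4 arrays (y axis) on each array (x axis), for the 5 epithelial regulators (left) and the 4 mesenchymal regulators (right), with black bars at the mean over genes. On NC replicate 1, Esrp1 and Elf3 lie above 0 and Esrp2, Grhl2 and Ovol1 below it, on shMCT-1 replicate 2 Ovol1 is the highest, and the bars stay within 0.070 of 0.

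Among genes with a profile like that of Esrp1, the epithelial regulator with the largest range over the arrays (0.56), the nearest was Man2b1, a lysosomal mannosidase, at a root mean square distance of 0.00913 log2 units over 4 arrays. Ntn4, a netrin of basement membranes, and Lamp2, a lysosomal membrane protein, followed at 0.0108 and 0.0118. Man2b1 was at 7.81 and 7.43 in NC and 7.40 and 7.25 in the arrays labelled shMCT-1. For Snai1, the mesenchymal regulator with the largest range (0.28), the nearest were Slc38a6, an amino acid transporter of the solute carrier class, and then 4930447F24Rik and Olfr333-ps1, at 0.00311, 0.00371 and 0.00585. With 4 arrays such likeness is common, as 1183 genes lay within 0.1 of Esrp1 and 6110 within 0.1 of Snai1.

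Some of the regulators act through a defined DNA motif. Snail and Zeb proteins bind the E-box CACCTG, written CAGGTG on the other strand, which is a form of the wider E-box CANNTG that Twist1 and E proteins read. The promoter window runs from 250 bases before to 50 after the start site in RefSeq sequence of GRCm38.p6, and Snai1, Twist1 and Elf3 were matched among the 9 genes. Both strands were searched. Snai1 and Elf3 each held the motif once, starting at -126 and -140 from the start site, and Twist1 held none. These promoters are shown because they carry the motif inside a repressor gene that is known to act on its own promoter and inside an epithelial regulator, with the E-box in capitals. Snai1 lies on the plus strand at chr2:167537945-167538244 and Elf3 on the minus strand at chr1:135258423-135258722.
Snai1: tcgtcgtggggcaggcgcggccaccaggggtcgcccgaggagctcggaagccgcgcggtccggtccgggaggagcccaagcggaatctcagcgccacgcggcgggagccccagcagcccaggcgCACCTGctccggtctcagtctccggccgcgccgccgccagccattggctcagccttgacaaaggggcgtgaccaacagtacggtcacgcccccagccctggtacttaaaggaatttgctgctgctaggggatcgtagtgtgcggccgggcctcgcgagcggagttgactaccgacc
Elf3: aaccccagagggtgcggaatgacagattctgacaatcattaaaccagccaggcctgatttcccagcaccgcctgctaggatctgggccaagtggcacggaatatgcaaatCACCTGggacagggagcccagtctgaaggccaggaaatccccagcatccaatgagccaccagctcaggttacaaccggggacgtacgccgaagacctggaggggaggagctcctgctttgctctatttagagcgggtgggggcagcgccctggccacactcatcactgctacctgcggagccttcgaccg
Over all 32851 promoters 20.2% held the motif. A match is a description of the sequence, and binding was not measured.

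The other regulators of each side also gave no adjusted call. Of 14 measured mesenchymal regulators beyond the members, 6 had a higher and 8 a lower mean, while 54.2% of all genes had a higher one. The median log2 difference was -0.041. With limma 0 passed after adjustment, and 2 had an unadjusted p under 0.05, against 5.59% of all genes. Leaving out NC replicate 1 gave a median of -0.11, leaving out shMCT-1 replicate 2 gave -0.12, and a filter on dim rows gave -0.10. Klf8, a Krüppel-like repressor of Cdh1, was at 5.58 and 5.27 in NC and at 4.97 and 4.96 in the arrays labelled shMCT-1, a log2 difference of -0.465 (SE 0.143, limma adjusted p = 0.882). Sox4, an HMG-box factor that acts upstream of Ezh2 in mesenchymal transition, was at 12.95 and 12.98 against 12.66 and 12.61, a difference of -0.33 (SE 0.104). Both genes were lower on each array labelled shMCT-1 than on either NC array, and NC replicate 1 was the highest array for Klf8.

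Fosl1, the AP-1 subunit Fra-1, had the largest difference on this list at 0.94 (SE 0.394, limma adjusted p = 0.882). It was at 7.68 and 8.62 in NC and at 8.75 and 9.44 in the arrays labelled shMCT-1, and the difference was 0.47 without NC replicate 1 and 1.42 without NC replicate 2. NC replicate 1 was low here, by 0.94 relative to NC replicate 2, and shMCT-1 replicate 1 minus replicate 2 was -0.69. The chromatin protein Hmga2, named after its values were seen, showed the same low array at 8.95, against 10.31, 9.70 and 10.80, and its difference of 0.62 became -0.064 without it. The closest paralogs of the members had log2 differences of 0.050 for Twist2 (percentile 21.6 of rows, so a dim one) and -0.16 for Snai3 (percentile 72.8).

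Of 13 further epithelial regulators, 5 had a higher and 8 a lower mean, while 54.2% of all genes had a higher one. Their median log2 difference was -0.058, and 2 had an unadjusted p under 0.05 with limma, against 5.59% of all genes. Tfap2a, an AP-2 factor of ectoderm and mammary epithelium, was at 10.71 and 10.57 in NC and at 10.23 and 10.39 in the arrays labelled shMCT-1 (log2 difference -0.33, SE 0.124, limma adjusted p = 0.882). Its paralog Tfap2c was at 4.13 and 4.22 against 3.91 and 3.81 (-0.31, SE 0.110). Foxa1, a pioneer factor of luminal cells, went the other way at 6.93 and 6.87 against 7.20 and 7.13 (0.26, SE 0.105, limma adjusted p = 0.882).

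Ehf, an ETS factor related to Elf3 and named after its values were seen, was at 9.10 and 8.23 in NC and at 8.21 and 7.80 in the arrays labelled shMCT-1. NC replicate 1 was the high array for Ehf as for Elf3. The log2 difference of Ehf was -0.67 (SE 0.329, limma adjusted p = 0.894) and -0.23 without that array. The paralogs of Grhl2 and Ovol1 had differences of -0.16 for Grhl1, 0.094 for Grhl3 (0.30 without NC replicate 1) and -0.069 for Ovol2 (-0.11 without it). In the median of this list NC replicate 1 was 0.16 above the rest.

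Corepressors that Snail and Zeb proteins recruit had 3 of 10 measured members with a higher and 7 with a lower mean. The share of all genes with a higher mean was 54.2%. Their median log2 difference was -0.0985, and 1 had an unadjusted p under 0.05 with limma, against 5.59% of all genes. Rcor1, the scaffold that joins the demethylase Kdm1a to histone deacetylases, was at 11.04 and 10.97 in NC and at 10.71 and 10.70 in the arrays labelled shMCT-1, a difference of -0.30 (SE 0.104, limma adjusted p = 0.882). Kdm1a, known as LSD1, was at -0.25 (SE 0.127), and -0.15 without NC replicate 1. Sin3a, another deacetylase scaffold, had a difference of 0.23 (SE 0.106, limma adjusted p = 0.886). The list median was -0.15 without NC replicate 1 and -0.012 without NC replicate 2.

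Snail protein is short-lived, and RNA values do not measure its turnover. Among 11 measured genes of that turnover 5 had a higher and 6 a lower mean, while 54.2% of all genes had a higher one. The median was -0.028, and 0 had an unadjusted p under 0.05 with limma, against 5.59% of all genes. The F-box genes Fbxl14 and Fbxo11, whose proteins target Snail for degradation, had differences of 0.21 (SE 0.105) and 0.24 (SE 0.104). Cops2, a subunit of the COP9 signalosome, which shields Snail from degradation, had a difference of 0.25 (SE 0.106), and the limma adjusted p of the 3 genes ran from 0.882 to 0.894. The arrays of the groups did not overlap for 6 of the 11 genes, against 34.9% of all genes. The list median turned to 0.086, with 7 of 11 higher, when shMCT-1 replicate 1 was left out.

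The microRNAs that hold down Zeb and Snail genes are shown because some of them share a seed, bases 2 to 8 in capitals. The seed is the stretch that pairs with target messages. All are mouse mature sequences from RefSeq, GRCm38.p6. The first line and the second share a seed, as do the third and the fourth, and members of both seed groups are known to target Zeb1. The seeds of miR-34a and miR-203 are shared with no other line.
miR-200b-3p: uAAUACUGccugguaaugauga
miR-200c-3p: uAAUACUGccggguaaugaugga
miR-200a-3p: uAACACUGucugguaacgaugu
miR-141-3p: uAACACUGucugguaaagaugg
miR-34a-5p: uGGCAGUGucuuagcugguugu
miR-203-3p: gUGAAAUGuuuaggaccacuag
They come from chr4:156055685-156055706, chr6:124718324-124718346, chr4:156054911-156054932 and chr6:124717917-124717938, all on the minus strand, and for miR-34a, which targets Snai1, and miR-203, which targets Snai2, from chr4:150068473-150068494 and chr12:112130927-112130948 on the plus strand. Array rows are assigned to the microRNA gene, and whether they read the precursor or the mature form is not stated.

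Differences within each measured pair of a genomic cluster, and within each measured pair with a shared seed, were unequal in size. The groups overlapped for 1 gene of each pair. Mir429 and Mir205, on the same list, had no row with a single gene symbol. Mir200c was at 4.78 and 4.95 in NC and at 4.21 and 4.41 in the arrays labelled shMCT-1, a log2 difference of -0.56 (SE 0.134, unadjusted p = 0.00986, limma adjusted p = 0.882). Mir141, its neighbour on chromosome 6, was at 4.35 and 5.07 against 4.46 and 4.95, a difference of -0.010 (SE 0.303), with each replicate 2 array the higher. Mir200a on chromosome 4 was at 3.13 and 3.39 against 3.63 and 3.68, a difference of 0.40 (SE 0.133, limma adjusted p = 0.882). Mir200b, its neighbour with the seed of Mir200c, had overlapping groups at 3.34 and 3.52 against 3.30 and 3.78 (difference 0.11, SE 0.196). The rows of Mir200a, Mir200b and Mir203 were dimmer than the median row, so signal over background limits them, and Mir203 lay at percentile 2.0. Over the 6 measured microRNA genes 3 had a higher and 3 a lower mean, while 54.2% of all genes had a higher one. Their median was 0.051, and -0.14 without NC replicate 1. Mir34a had a difference of 0.16 (SE 0.337) and Mir203 of -0.26 (SE 0.158), and 0 of the 6 passed with limma after adjustment. Without NC replicate 1 the differences were -0.65 for Mir200c, -0.37 for Mir141, 0.27 for Mir200a, 0.026 for Mir200b, -0.18 for Mir34a and -0.10 for Mir203.

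Of 22 measured epithelial genes that the regulators are known to switch, 6 had a higher and 16 a lower mean. The share of all genes with a higher mean was 54.2%. The list had a median log2 difference of -0.16 against 0.014 over all genes. In the median of this list NC replicate 1 was 0.21 above the rest. Without that array the median was -0.042, with 9 higher. After adjustment 0 passed with limma, and 2 had an unadjusted p under 0.05, Cldn7 and Pkp3, against 5.59% of all genes. Of 3 claudins of tight junctions, Cldn7 was at 5.35 and 5.15 in NC and 6.93 and 6.88 in the arrays labelled shMCT-1 (1.66, SE 0.121, limma adjusted p = 0.669). Cldn1 was at 9.20 and 7.20 against 6.95 and 5.87 (-1.79, SE 0.748, limma adjusted p = 0.882, and -0.79 without NC replicate 1), and Cldn4 had overlapping groups at 17.21 and 16.73 against 16.86 and 16.36 (-0.36, SE 0.249). Pkp3, a desmosomal plakophilin, was at 7.19 and 7.22 against 6.76 and 6.93 (-0.36, SE 0.117). Cdh1 was at 14.52 and 14.20 against 14.18 and 13.94 (-0.30, SE 0.164, limma adjusted p = 0.897), and it was -0.14 without NC replicate 1.

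The E-box was frequent in the promoters of these epithelial genes. Of 15 with a promoter in the table, 12 held it in at least 1 window, against 22.6% of all 27025 genes. It was found in 1 of 10 mesenchymal targets (Sparc), in 3 of 10 other epithelial regulators (Elf5, Grhl3 and Foxa1), and in 0 of 8 other mesenchymal regulators. For the members and every list, promoters of 1 chromosome were left out, while the counts over all promoters and all genes were not restricted. The lists were drawn from textbook targets of these repressors, so the difference describes the lists. Crb3, which encodes the apical polarity protein Crumbs3, held 4 and is shown as the promoter with the most, on the plus strand at chr17:57061951-57062250 with the motif in capitals.
Crb3: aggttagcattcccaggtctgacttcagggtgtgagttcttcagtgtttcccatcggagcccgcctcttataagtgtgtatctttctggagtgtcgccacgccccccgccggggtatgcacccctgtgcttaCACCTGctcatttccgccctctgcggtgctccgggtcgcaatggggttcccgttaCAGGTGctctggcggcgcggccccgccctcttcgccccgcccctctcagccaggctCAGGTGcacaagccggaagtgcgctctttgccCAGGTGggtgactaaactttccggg
Crb3 was at 5.76 and 5.53 in NC and at 5.65 and 5.67 in the arrays labelled shMCT-1, a log2 difference of 0.018 (SE 0.127, limma adjusted p = 0.995), with the NC values enclosing the others. Of all 12 carriers 5 had a higher and 7 a lower mean, while 54.2% of all genes had a higher one. The median log2 difference of the carriers was -0.025, and -0.0029 without NC replicate 1. They ran from -0.51 for the desmosomal protein Dsp to 1.66 for Cldn7. The groups did not overlap for 4 of the 12, against 34.9% of all genes. These were Cldn7 and the GTPase gene Rab25 (0.24) with a higher and the junction genes Ocln (-0.25) and Patj (-0.21) with a lower mean.

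**Figure D4:**
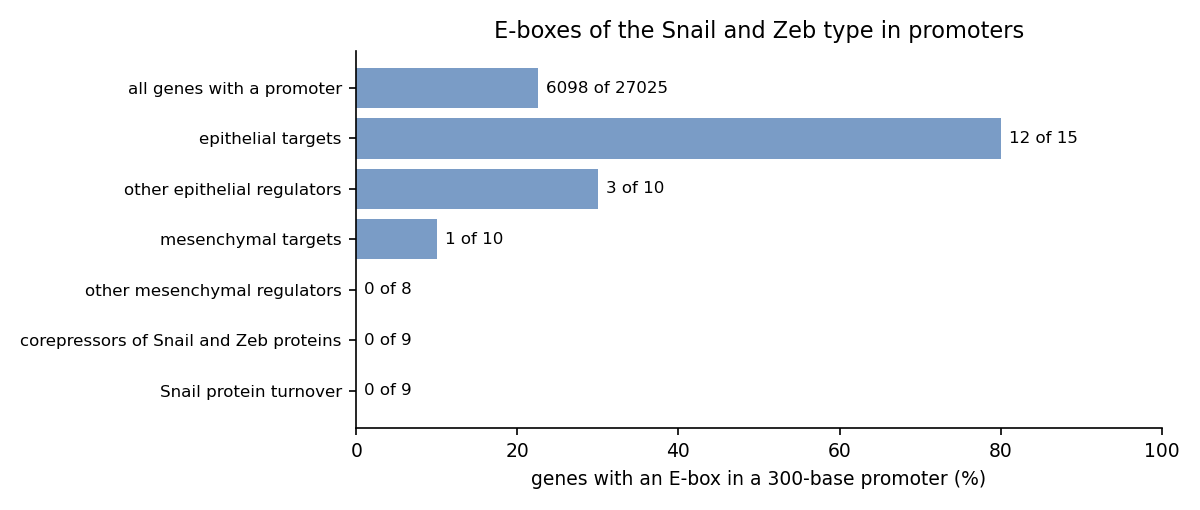
Share of genes (x axis, %) with at least 1 E-box of the Snail and Zeb type in a promoter window of 300 bases, for each gene list and for all genes with a promoter (y axis), with the counts beside the bars. The epithelial targets stand at 12 of 15 and all genes at 6098 of 27025. Promoters of 1 chromosome were left out of the lists and not of the count over all genes.

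Mesenchymal targets were spread around 0, with 10 of 19 measured genes higher and 9 lower, against 54.2% of all genes higher. Their median log2 difference was 0.016. That median was -0.084 under a filter on dim rows and -0.033 with shMCT-1 replicate 1 left out. Fn1, the matrix protein fibronectin, was at 14.07 and 14.00 in NC and at 14.41 and 14.36 in the arrays labelled shMCT-1 (0.35, SE 0.105, limma adjusted p = 0.882). Sparc, a matrix glycoprotein, went the other way at 12.09 and 11.61 against 11.36 and 10.77 (-0.78, SE 0.266). Itga5, the fibronectin receptor subunit, was at 8.87 and 9.01 against 8.52 and 8.71 (-0.33, SE 0.127). The intermediate filament gene Vim, named after its values were seen, was at 14.47 and 15.48 against 15.12 and 15.88. Replicate 1 was the lower array of Vim in each group. Its difference of 0.52 (SE 0.424, limma adjusted p = 0.914) was 0.017 without NC replicate 1, where NC replicate 2 stood alone against both arrays labelled shMCT-1. Cdh2, the neural cadherin, was between 3.34 and 3.50 on every array, and 7 of the 19 rows were dimmer than the median row.

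Transcripts that Esrp proteins are known to splice were measured at gene level, so isoforms were not told apart. Of 8 such genes 5 had a higher and 3 a lower mean, and 1 had an unadjusted p under 0.05 with limma. Of all genes 54.2% had a higher mean and 5.59% an unadjusted p under 0.05 with limma. The median log2 difference of the 8 genes was 0.0093. The median turned to -0.062 after quantile normalisation and -0.017 after median centring. The gene at the lowest p was Enah, an actin regulator with an epithelial exon, at 7.30 and 7.16 in NC and at 7.58 and 7.51 in the arrays labelled shMCT-1 (0.31, SE 0.115, limma adjusted p = 0.882). Slk, a kinase of cell motility, had a difference of 0.21 (SE 0.104) and Magi1, a junction scaffold, of -0.12 (SE 0.103). Among 7 other splicing factors of either state the median was 0.14, with 5 higher and 2 lower and 0 at an unadjusted p under 0.05. Leaving out NC replicates 1 and 2 in turn gave medians of 0.055 and 0.36, and leaving out shMCT-1 replicates 1 and 2 in turn gave 0.30 and -0.00085. Srsf1, a serine and arginine rich factor, was at 13.28 and 13.91 in NC and at 13.93 and 14.19 in the arrays labelled shMCT-1 (0.47, SE 0.245), and 0.16 without NC replicate 1. Mbnl2, a muscleblind factor, was at -0.28 (SE 0.113) and Celf1, a factor of the CELF family, at 0.29 (SE 0.134).

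**Figure D5:**
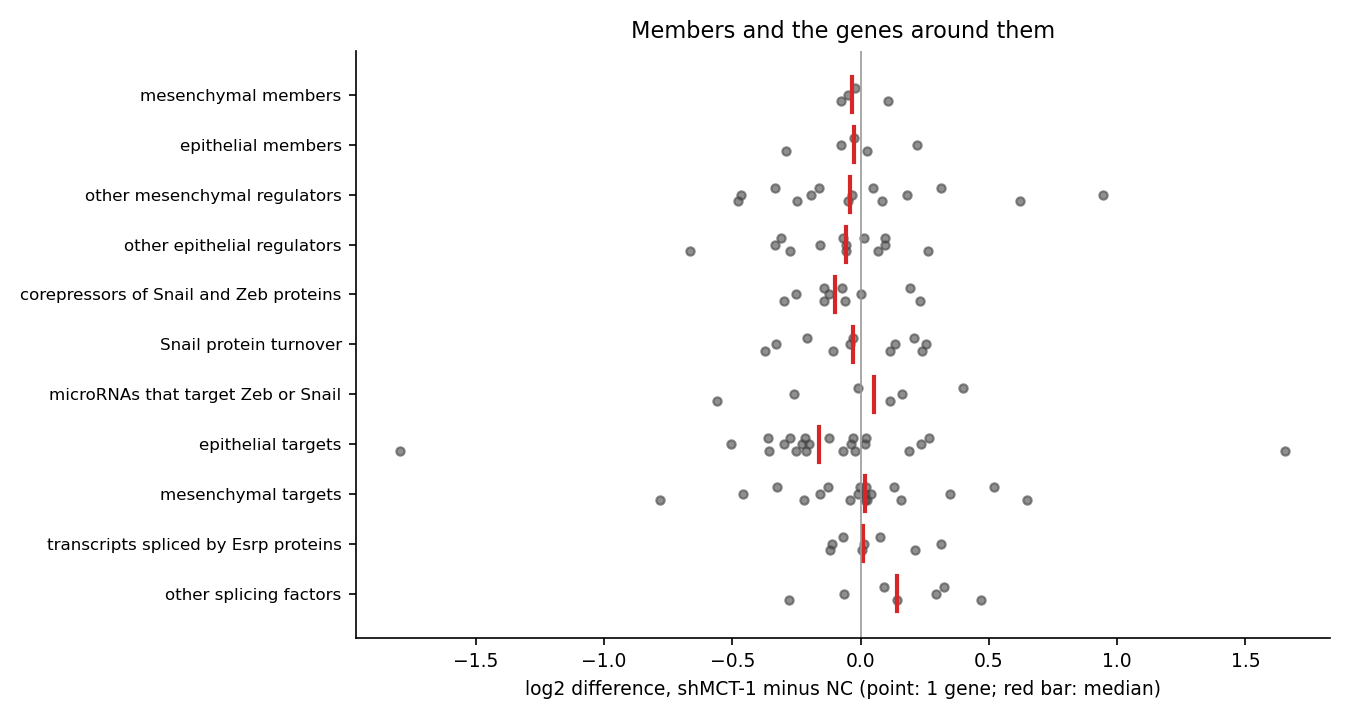
Log2 difference, shMCT-1 minus NC (x axis), of every measured gene (points) in each list (y axis), with a red bar at the list median. The members lie between -0.29 and 0.22, the epithelial targets reach from -1.79 to 1.66, and the medians of the lists plotted lie between -0.16 and 0.14.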

How the data were processed

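RNA of 4 4T1 cultures was measured on Affymetrix arrays. The submitters' processing notes name Affymetrix Expression Console and RMA, and the authors' deposited values are on a log2 scale (1.29 to 19.9). The sources used here give no versions, options or build. Groups came from titles, as the description field numbers the arrays 1 to 4. Of 65956 rows, 30604 had 1 gene symbol, 2146 had several and 33206 were not listed. Symbols of 827 rows were updated through gene IDs (GRCm38.p6), giving 30142 genes. The brightest row stood for a gene.

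Differences, shMCT-1 minus NC, were fitted on all rows with limma 3.58.1 under R 4.3.3 (no trend, not robust, 2 residual and 2.72 prior degrees of freedom). Tests were two-sided, Benjamini-Hochberg adjusted over all rows, threshold 0.05. The fit was also run on simulated data with independent noise and planted changes larger than any difference of the 9 members. That run does not speak to differences as small as theirs. With 2 arrays a group, p-values rest only on the spread between these samples, moderated by that over all rows, and reach no further than these cultures. Levels of different rows were not compared, apart from their percentiles by mean signal. Arrays in which all values of a group lie on 1 side of the other are called not overlapping. Besides the 9 members, Mcts1 and the profiles nearest to a member, the genes named were the 3 of each list with the lowest unadjusted p, and other list genes named were chosen after their values were seen. Members and lists were chosen with earlier results of these data known. Alternatives were a variance trend, robust or no moderation, quantile normalisation, median centring, a filter on dim rows, the averaged rows of a gene, weighted arrays, a replicate block and the omission of each array in turn. The number of arrays limits the precision.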

Additional observations from a re-analysis of the deposited data

How the results depend on the processing

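All 13 alternative settings left 0 of the 9 regulators with an adjusted p under 0.05. At an unadjusted p under 0.05 the count was 0, except for 1 without NC replicate 2 (Esrp1, limma adjusted p = 0.534) and 1 without shMCT-1 replicate 1 (Ovol1, limma adjusted p = 0.855), a range of 0 to 1 with 1 array left out. Regulators whose groups did not overlap numbered 3 of the 9 in all arrays, against 34.9% of all genes. They numbered 2 under a filter on dim rows, and 4 to 8 with 1 array left out, where a group of 1 array separates more easily. The share of all genes under these alternatives is not given here, so these counts are not read against it. Of the 116 values of single regulators under an alternative 108 kept their sign. The variance trend, robust or no moderation, array weights, replicate block, dim-row filter and averaged rows returned the main differences unchanged. Only quantile normalisation, median centring and the omission of an array could turn a sign. The 8 that turned were those of Esrp2 after quantile normalisation (-0.0010) and median centring (-0.0013) and, with 1 array left out, within the ranges of -0.15 to 0.20 for Esrp2, -0.082 to 0.042 for Twist1, -0.15 to 0.098 for Grhl2, -0.019 to 0.46 for Ovol1 and -0.33 to 0.18 for Elf3. With 1 array left out the median of the epithelial regulators ran from -0.091 to 0.098, that of the mesenchymal ones from -0.055 to -0.0022 and the gap between these medians (0.0091 in all arrays) from -0.054 to 0.13. The mesenchymal median was -0.064 after quantile normalisation and -0.060 after median centring. Snai2 had no value under the filter on dim rows. The replicate numbers were shared by the groups, same-numbered deviations correlated at 0.42 over rows, and 2 numbers do not settle a pairing. With the replicate block 7537 rows had an unadjusted p under 0.05, against 3698 without it, 0 rows passed after adjustment, and the 9 differences were as without it, with 0 regulators at an unadjusted p under 0.05. A lone array was taken to vary as the other group does, and dim rows such as Snai2 limit what signal over background can show.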
